A study of Mus musculus with 6 samples.

Results

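Vitamin A handling in mouse small intestine was followed through 8 genes: Rbp2, Bco1, Lrat, Isx, Dhrs3, Rdh10, Aldh1a1 and Rarb. They were chosen by symbol as genes of vitamin A absorption and metabolism, with earlier results of these data known. Each matched a single row of the 45777 in the deposited gene table. All 8 passed the filter on low counts, which left 18456 genes for testing. The study compared 3 libraries labelled DIO-zeta, a treatment given as overexpression of PKCzeta (the atypical protein kinase C encoded by Prkcz), with 3 control libraries labelled DIO-GFP, where GFP is a green fluorescent protein. Every library is total RNA of small intestine, depleted of ribosomal RNA, and all 6 titles carry the letters DIO. What DIO stands for, how the kinase was delivered, and the strain, age, sex and intestinal segment are not given in the sources used here. Nothing in the labels says that the libraries of a group are separate animals, so p-values measure only the spread between these samples, which may be technical. Total counts were 77573133 to 87572356 in the DIO-zeta libraries and 85411847 to 93742978 in the DIO-GFP libraries.

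The deposited count of the targeted mouse gene did not separate the labels. Whether reads of an introduced copy would be counted there is not known, as the delivery is not given. Prkcz stood at 82.5, 100.07 and 57.0 CPM (a read count relative to the library's TMM-scaled total) in DIO-zeta replicates 2-1, 4-1 and 4-2, and at 70.5, 98.6 and 96.9 CPM in DIO-GFP replicates 1-1, 1-4 and 3-1. Replicates are given in that order throughout, and each direction below is a direction between libraries labelled DIO-zeta and libraries labelled DIO-GFP. Across genes, pairs of libraries had a Pearson's r, on log2 CPM, of 0.959 to 0.969 within groups and 0.953 to 0.977 between groups. Mitochondrial genes took 2.92% to 9.19% of counts in the DIO-zeta libraries and 3.37% to 10.7% in the DIO-GFP libraries.

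Dietary vitamin A reaches the enterocyte as retinol, released from retinyl esters in the lumen, or as beta-carotene, which BCO1 cleaves to retinaldehyde. Inside the cell RBP2 binds retinol and retinaldehyde, and LRAT joins retinol to a fatty acid so that retinyl ester can leave in chylomicrons. A smaller flux runs through RDH10, which oxidises retinol to retinaldehyde, and through retinaldehyde dehydrogenases such as ALDH1A1, which make retinoic acid, while DHRS3 reduces retinaldehyde back to retinol. Retinoic acid binds nuclear receptors such as RARB and induces the intestinal homeobox gene Isx, whose protein represses Bco1 and the scavenger receptor gene Scarb1 in a feedback loop known from mice.

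Per unit of transcript length, the binding protein and the acid-forming enzyme were the highest of the 8. On the deposited TPM scale (the authors' length-corrected transcript share) Rbp2 averaged 359 ± 197 and Aldh1a1 226 ± 76.2 over all 6 libraries (SD, n = 6). Isx followed with 40.4 ± 5.76 TPM, Rdh10 with 16.7 ± 9.22 TPM and Dhrs3 with 9.78 ± 2.38 TPM. Lrat was at 4.75 ± 2.27 TPM and Bco1 at 4.33 ± 1.80 TPM. The receptor gene Rarb was at 0.260 ± 0.0908 TPM. Of neighbours in this order, the ranges over libraries did not overlap between Aldh1a1 and Isx or between Bco1 and Rarb, and overlapped in the other 5 pairs. Rbp2 was above Aldh1a1 in 5 of 6 libraries, Isx above Rdh10 in 6 of 6, and Lrat above Bco1 in 4 of 6.

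No vitamin A gene passed the test between the labels, and in edgeR neither did any other gene. With edgeR's quasi-likelihood test and Benjamini-Hochberg adjustment, 0 of the 8 and 0 of 18456 genes (0%) had an adjusted p under 0.05. The smallest adjusted p of any gene was 0.858. DESeq2 called 87 genes, of which 0 were among the 8, and limma with voom weights or on TPM values called 0. At an unadjusted p under 0.05, 2 of the 8 were higher with the DIO-zeta label (Bco1 and Rdh10), against 2.41% of all genes tested, and 2 were lower (Rbp2 and Aldh1a1), against 3.07%. Over all genes that made 1012, or 5.48%. The lower count was 0 of the 8 when scaled to 6 pan-epithelial markers (edgeR unadjusted p 0.0858 for Rbp2 and 0.0619 for Aldh1a1). It was also 0 on both TPM scales (limma unadjusted p 0.0798 to 0.0957), while Bco1 and Rdh10 stayed under 0.05 in these settings. The median log2 fold change of all genes was itself 0.16 with the epithelial scaling and 0.14 and 0.23 on the TPM scales. Shares of all genes under 0.05 were not computed there, so these counts have no background beside them. Leaving out a library raised the edgeR unadjusted p to as much as 0.126 for Rbp2, 0.138 for Bco1, 0.156 for Rdh10 and 0.0409 for Aldh1a1. The ranges of the groups did not overlap for 3 of the 8, against 10.4% of all genes: Bco1 and Rdh10 were apart and higher with the DIO-zeta label, as were 4.72% of all genes, and Aldh1a1 was apart and lower, as were 5.66%. The log2 fold changes, DIO-zeta over DIO-GFP, ran from -1.07 to 0.72. Of the 8, 4 lay below 0, against 45.7% of all genes, and their median was 0.031 (-0.23 to 0.18 under the alternatives) beside a median of 0.035 over all genes tested.

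**Figure D1:**
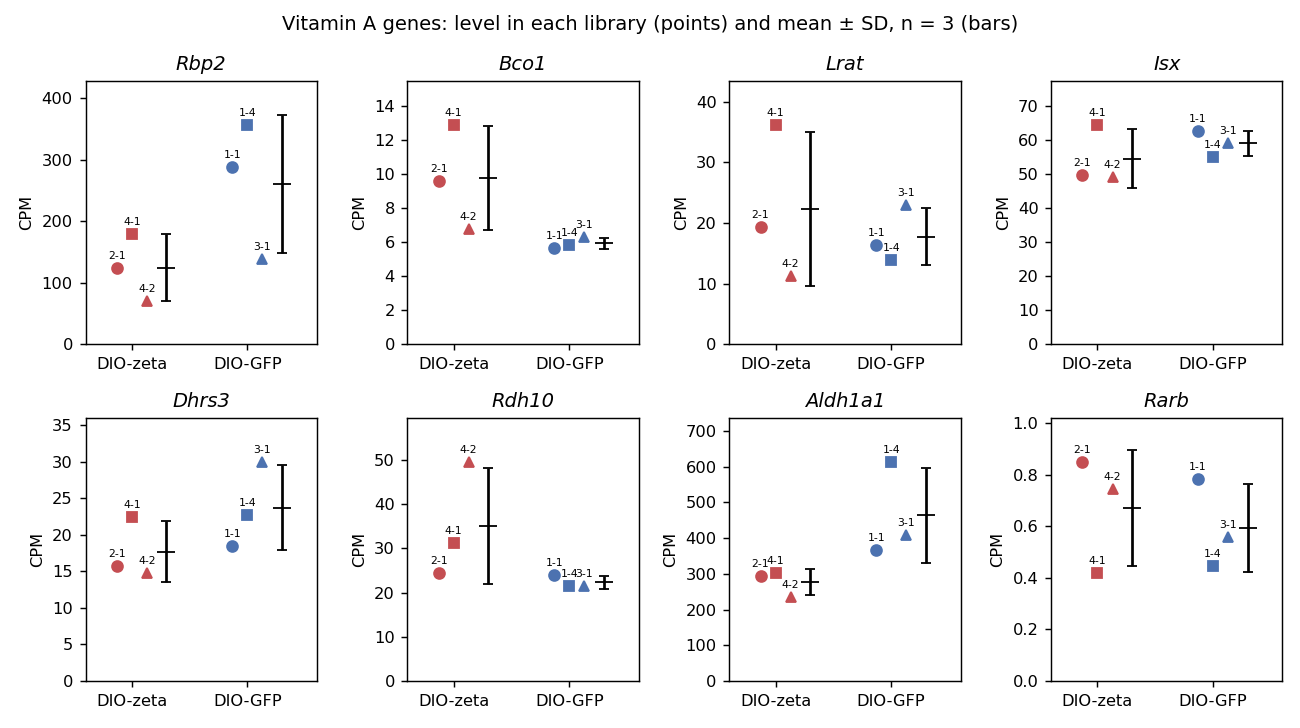
Level of each of the 8 genes in CPM (vertical axes, linear from 0, one scale per gene) in the 3 DIO-zeta and the 3 DIO-GFP libraries, with replicate names beside the points and bars for the mean ± SD (n = 3). The DIO-zeta points lie above all DIO-GFP points for Bco1 and Rdh10 and below them for Aldh1a1, and the groups overlap for the other 5 genes.

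Rbp2, the retinol-binding protein of enterocytes (Entrez 19660, chromosome 9 from 98490537 to 98509771 in mm10, plus strand), had the lowest fold change of the 8. It stood at 124, 179 and 70.0 CPM in the DIO-zeta libraries, against 288, 357 and 138 CPM in the DIO-GFP libraries. DIO-GFP replicate 3-1 lay below DIO-zeta replicate 4-1, so the groups overlapped. The means were 124 ± 54.7 CPM with the DIO-zeta label and 261 ± 112 CPM with the DIO-GFP label (SD, n = 3 each). On the log2 scale the fold change was -1.07, with an SE of 0.42 and a 95% interval from -2.04 to -0.10. In edgeR the unadjusted p was 0.0343 and the adjusted p 0.877. Permuting the labels exactly gave a two-sided p of 0.2, where 3 against 3 libraries cannot give less than 0.1. Without DIO-zeta replicate 4-2 the log2 fold change was -0.77, and without DIO-zeta replicate 4-1 it was -1.43.

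Genes of the upper small intestine and of enterocytes also differed between libraries, and those named here were chosen after their values were seen. Lct, the lactase gene of the proximal brush border, was at 3.20, 63.3 and 2.31 CPM in the DIO-zeta libraries and at 116, 200.3 and 39.6 CPM in the DIO-GFP libraries, which is the same order of the 6 libraries as for Rbp2. Gata4, whose protein helps set proximal identity in the small bowel, stood at 1.12, 0.738 and 1.08 CPM with the DIO-zeta label against 7.22, 9.70 and 1.79 CPM with the DIO-GFP label, lower in all 3 DIO-zeta libraries than in any DIO-GFP library. Of the 7 proximal markers listed, 6 could be tested and 5 were lower with the DIO-zeta label, and Cyp8b1 had 0 counts in 5 of the 6 libraries. Their summed level was 69.8 to 264 CPM with the DIO-zeta label against 169 to 374 CPM with the DIO-GFP label. Lct and Fabp1 are also on the enterocyte list below and weighed heavily in that sum. Fabp1 was at 150 CPM and Lct at 63.3 CPM of the 264 CPM in DIO-zeta replicate 4-1. In DIO-GFP replicate 1-4 they were at 125 and 200.3 CPM of the 374 CPM. The adjusted threshold was passed by 0 markers of the proximal list in edgeR and by 1 in DESeq2. Of the 6 distal markers listed, 5 were lower with the DIO-zeta label too, with a median log2 fold change of -0.51 beside -0.49 for the proximal list. Their levels ranged widely: the ileal lipid-binding protein gene Fabp6 was at 2544 to 2949 CPM with the DIO-zeta label and 2601 to 4215 CPM with the DIO-GFP label, and Fgf15, an ileal hormone gene, at 4.97 to 10.8 CPM with the DIO-zeta label and 6.27 to 119 CPM with the DIO-GFP label. All 12 enterocyte markers listed were lower with the DIO-zeta label (median log2 fold change -0.92, with 0 past the adjusted threshold in edgeR and 2 in DESeq2). Without DIO-zeta replicate 4-2 the lower markers were 11 of 12 and the median was -0.61. The summed level of the 12 was 17969.5 to 36969.4 CPM with the DIO-zeta label against 42875.6 to 53101.4 CPM with the DIO-GFP label. In a ratio also chosen after the values were seen, read counts of Rbp2 divided by those of Fabp2, a fatty acid-binding protein gene of enterocytes, were 0.0191, 0.0210 and 0.0222 with the DIO-zeta label and 0.0187, 0.0291 and 0.0143 with the DIO-GFP label, and overlapped. The 6 pan-epithelial markers summed to 8712 to 10111.5 CPM with the DIO-zeta label against 8265 to 11212 CPM with the DIO-GFP label. In bulk tissue, fewer enterocytes and less RNA per enterocyte cannot be told apart, and the part of cell makeup or segment in the Rbp2 values was not tested.

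**Figure D2:**
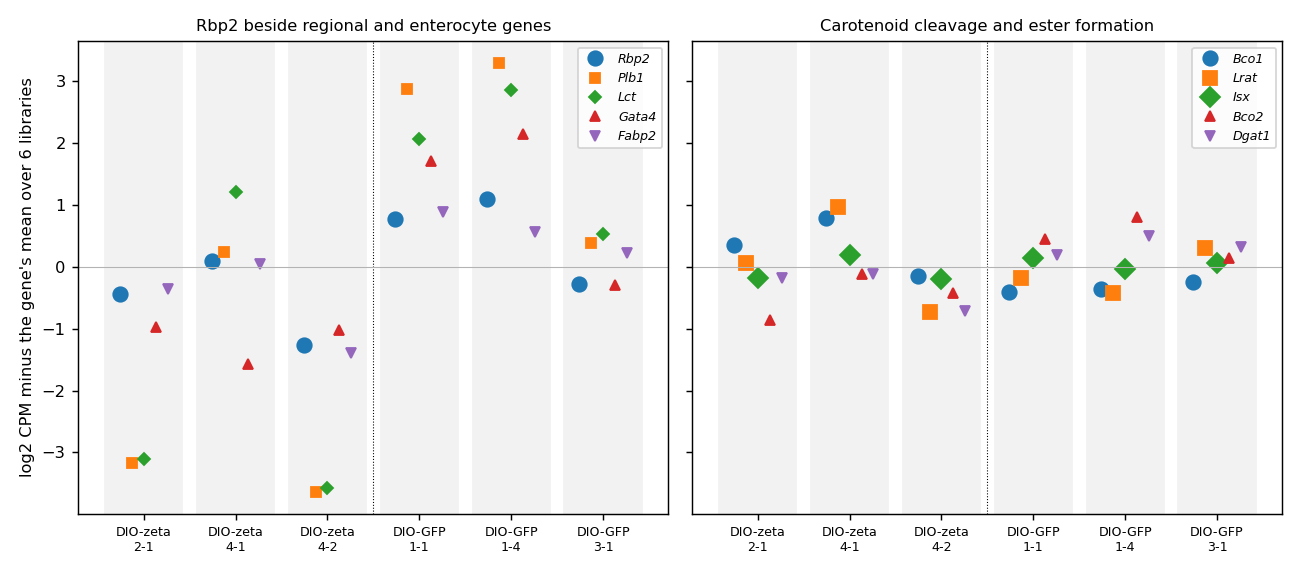
Deviation of log2 CPM from the gene's own mean over the 6 libraries (vertical axis), for Rbp2 beside Plb1, Lct, Gata4 and Fabp2 (left) and for Bco1, Lrat and Isx beside Bco2 and Dgat1 (right), with the DIO-zeta libraries left of the dotted line and larger symbols for vitamin A genes. Rbp2, Plb1 and Lct are highest in DIO-GFP replicate 1-4 and lowest in DIO-zeta replicate 4-2, while Bco1, Lrat and Isx are highest in DIO-zeta replicate 4-1.

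Bco1, the beta-carotene oxygenase gene (Entrez 63857, chromosome 8 from 117095851 to 117133720, plus strand), had the highest fold change of the 8. It stood at 9.60, 12.9 and 6.78 CPM in the DIO-zeta libraries, against 5.64, 5.85 and 6.29 CPM in the DIO-GFP libraries. All DIO-zeta values were above all DIO-GFP values, and the gap between DIO-zeta replicate 4-2 and DIO-GFP replicate 3-1 was narrow. The means were 9.76 ± 3.06 CPM with the DIO-zeta label and 5.93 ± 0.336 CPM with the DIO-GFP label (SD, n = 3 each), from 709 to 1049 reads per DIO-zeta library and 447 to 520 reads per DIO-GFP library. On the log2 scale the fold change was 0.72, with an SE of 0.27 and a 95% interval from 0.095 to 1.34. Its unadjusted p in edgeR was 0.0289 and its adjusted p 0.872. Without DIO-zeta replicate 4-1 the value was 0.47. Of the 50-base words in its longest GENCODE transcript, 1.57% occur in other genes' transcripts.

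The other carotenoid oxygenase ran the other way. Bco2, which cleaves carotenoids off-centre and acts in mitochondria, stood at 14.2, 24.0 and 19.2 CPM in the DIO-zeta libraries and at 35.4, 45.2 and 28.6 CPM in the DIO-GFP libraries, without overlap (log2 fold change -0.93, SE 0.25, edgeR adjusted p 0.858). The ratio of Bco1 to Bco2 reads, which needs no scaling between libraries, was 0.675, 0.539 and 0.353 with the DIO-zeta label and 0.159, 0.130 and 0.220 with the DIO-GFP label. That pair was chosen after the values were seen, and both genes already had ranges apart in opposite directions. In RefSeq the spans of Bco2 and of Il18, on the opposite strand, overlap, though GENCODE gives them no exonic base in common.

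The repressor gene and its other known target differed less between labels. Isx (Entrez 71597, chromosome 8 from 74873174 to 74893506, plus strand) stood at 49.7, 64.4 and 49.2 CPM in the DIO-zeta libraries and at 62.6, 55.1 and 59.2 CPM in the DIO-GFP libraries. Its means were 54.4 ± 8.64 CPM with the DIO-zeta label and 59.0 ± 3.78 CPM with the DIO-GFP label (SD, n = 3 each), with the value of DIO-zeta replicate 4-1 above and the other DIO-zeta values below every DIO-GFP value. Its log2 fold change of -0.12 had an SE of 0.16 and a 95% interval from -0.49 to 0.26 (edgeR adjusted p 0.942), and it was 0.012 when scaled to 6 pan-epithelial markers and 0.097 on log2(TPM + 1). Scarb1, the receptor gene for carotenoid uptake that ISX represses in mice, was at 2.64, 2.32 and 3.61 CPM with the DIO-zeta label against 3.10, 2.64 and 1.60 CPM with the DIO-GFP label (log2 fold change 0.23, SE 0.34).

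The start-site sequences of Rbp2 and Bco1 are shown because both hold the same receptor-type word while their fold changes had opposite signs. RefSeq windows were found for 7 of the 8 genes (10 windows on GRCm38.p6, the assembly that mm10 names), and the 250 bases before each start were searched on both strands. A direct repeat was any pair of the hexamers below with 1, 2 or 5 bases between them (DR1, DR2 and DR5). Each hexamer was AGGTCA, which is the form that most such receptors favour, or one of its common variants, of which GGGTCA was the first one searched here, with AGTTCA searched next in the same windows, and with GGTTCA as the last of these variants. The letters CAA directly before the favoured form were searched too and can lie within a DR1. For GATA factors the word was AGATAA, with TGATAA as its other form, and for CDX factors it was TTTATG. The capitals mark the DR1 in Bco1 and the CAA word in Rbp2, both read on the strand opposite to the one printed, and the start used for Bco1 lies just inside the gene's span.
Rbp2, chr9:98490287-98490536, plus strand: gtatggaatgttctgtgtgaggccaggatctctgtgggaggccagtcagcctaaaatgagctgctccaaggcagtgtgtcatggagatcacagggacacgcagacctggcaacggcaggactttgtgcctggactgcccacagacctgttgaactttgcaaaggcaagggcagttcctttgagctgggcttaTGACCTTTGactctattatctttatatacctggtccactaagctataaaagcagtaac
Bco1, chr8:117095615-117095864, plus strand: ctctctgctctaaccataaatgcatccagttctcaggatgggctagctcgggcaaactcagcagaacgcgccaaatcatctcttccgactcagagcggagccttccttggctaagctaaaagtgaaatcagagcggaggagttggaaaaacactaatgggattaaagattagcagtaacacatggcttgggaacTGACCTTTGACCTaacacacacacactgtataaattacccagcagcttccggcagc
The word CAAAGGTCA, read on the minus strand, lay 58 to 50 bases before the start of Rbp2 and 56 to 48 bases before that of Bco1. It was in 0.426% of all 32851 windows. In Bco1 it was part of AGGTCAAAGGTCA, which is a DR1. A DR1 of any pair of the hexamers was found in 0.164% of windows and in no other of the 7 genes. Rbp2 also held AGATAA 43 to 38 bases before its start, as did 1 of the Aldh1a1 windows 32 to 27 bases before its own, and either GATA word occurred in 16.6% of all windows. TTTATG was in the Bco1 window and in 10.8% of all windows. A match is a description of letters and not a binding site.

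Lrat, which makes most retinyl ester in the gut (Entrez 79235, chromosome 3 from 82892582 to 82903974, minus strand), was at 19.4, 36.2 and 11.2 CPM in the DIO-zeta libraries and 16.4, 13.9 and 23.0 CPM in the DIO-GFP libraries. The DIO-zeta libraries held both the highest and the lowest value of the 6. Group means were 22.3 ± 12.7 CPM with the DIO-zeta label and 17.7 ± 4.70 CPM with the DIO-GFP label (SD, n = 3 each). The difference was 0.33 on the log2 scale, with an SE of 0.41, a 95% interval from -0.61 to 1.27 and an edgeR adjusted p of 0.931. Without DIO-zeta replicate 4-1, the library in which Bco1 and Isx were also highest, it was -0.21. The acyltransferase genes Dgat1 and Dgat2, of which DGAT1 can also esterify retinol, were lower with no overlap. Dgat1 was at 391, 410.4 and 271 CPM with the DIO-zeta label against 508, 627 and 557 CPM with the DIO-GFP label (log2 fold change -0.66, SE 0.20), and Dgat2 at 169, 157 and 127 CPM with the DIO-zeta label against 228, 236 and 274 CPM with the DIO-GFP label (-0.70, SE 0.17), each with an edgeR adjusted p of 0.858.

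Rdh10, the enzyme of the first oxidation step (Entrez 98711, chromosome 1 from 16105882 to 16132550, plus strand), stood at 24.4, 31.1 and 49.6 CPM in the DIO-zeta libraries and at 24.1, 21.4 and 21.5 CPM in the DIO-GFP libraries. The ranges did not overlap, but DIO-zeta replicate 2-1 was barely above DIO-GFP replicate 1-1. Group means were 35.0 ± 13.1 CPM with the DIO-zeta label and 22.3 ± 1.50 CPM with the DIO-GFP label (SD, n = 3 each). On the log2 scale the fold change was 0.65, with an SE of 0.26 and a 95% interval from 0.046 to 1.26. In edgeR the unadjusted p was 0.0381 and the adjusted p 0.877. Without DIO-zeta replicate 4-2 the value was 0.32.

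Dhrs3, the reductase that runs the same step backwards (Entrez 20148, chromosome 4 from 144892534 to 144928209, plus strand), stood at 15.7, 22.5 and 14.8 CPM with the DIO-zeta label and at 18.5, 22.6 and 30.0 CPM with the DIO-GFP label. The groups overlapped, with means of 17.7 ± 4.20 CPM with the DIO-zeta label and 23.7 ± 5.84 CPM with the DIO-GFP label (SD, n = 3 each). The difference of -0.42 on the log2 scale had an SE of 0.25, a 95% interval from -1.0 to 0.15 and an edgeR adjusted p of 0.917. Without DIO-GFP replicate 3-1 it was -0.21, and without DIO-zeta replicate 4-1 it was -0.64. The RefSeq model of Vps13d spans Dhrs3 on the opposite strand, at means of 147 CPM with the DIO-zeta label and 162 CPM with the DIO-GFP label, though GENCODE gives them no exonic base in common, and whether counting used the strand is not known. Reads of Rdh10 divided by those of Dhrs3 were 1.55, 1.38 and 3.35 with the DIO-zeta label and 1.30, 0.946 and 0.717 with the DIO-GFP label. The lowest DIO-zeta ratio was thus just above the highest DIO-GFP ratio, in a pair chosen after the values were seen.

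Aldh1a1, a retinaldehyde dehydrogenase (Entrez 11668, chromosome 19 from 20492583 to 20643463, plus strand), had the smallest p of the 8. It stood at 295, 302 and 234 CPM in the DIO-zeta libraries and at 366, 614 and 410.0 CPM in the DIO-GFP libraries. The groups did not overlap, and DIO-GFP replicate 1-4 stood well above the rest. The means were 277 ± 37.5 CPM with the DIO-zeta label and 464 ± 132 CPM with the DIO-GFP label (SD, n = 3 each). On the log2 scale the fold change was -0.74, with an SE of 0.23 and a 95% interval from -1.27 to -0.21. Its unadjusted p in edgeR was 0.0121 and its adjusted p 0.858, while exact permutation of the labels gave 0.1, the least possible. Without DIO-GFP replicate 1-4 the value was -0.49.

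A near copy of the gene had a similar difference. Aldh1a7, a close relative known in rodents, stood at 37.4, 43.2 and 28.1 CPM with the DIO-zeta label and at 54.8, 73.1 and 56.5 CPM with the DIO-GFP label (log2 fold change -0.76, SE 0.21). The ratio of Aldh1a1 to Aldh1a7 reads was 6.99 to 8.32 with the DIO-zeta label and 6.69 to 8.41 with the DIO-GFP label, in a pair also chosen after the values were seen. Of the 50-base words in the longest GENCODE transcript of Aldh1a1, 6.54% also occur in transcripts of other genes, Aldh1a7 first among them, so reads of the pair may be split between them. Aldh1a2, the form of dendritic cells and stroma, was at 2.77, 5.08 and 4.93 CPM with the DIO-zeta label against 7.06, 4.80 and 7.06 CPM with the DIO-GFP label (-0.57, SE 0.31), and Aldh1a3 at 17.6, 50.3 and 31.0 CPM with the DIO-zeta label against 23.7, 30.9 and 15.5 CPM with the DIO-GFP label (0.50, SE 0.39). None of these genes was past the adjusted threshold, and Aldh1a2 and Aldh1a3 were not among those with the smallest p in their list.

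Rarb, the receptor gene that is also a classical retinoic acid target (Entrez 218772, chromosome 14 from 16430839 to 17082331, minus strand), had the fewest reads of the 8. It had 74, 34 and 78 reads in the DIO-zeta libraries and 62, 39 and 46 reads in the DIO-GFP libraries. These made 0.851, 0.418 and 0.746 CPM with the DIO-zeta label and 0.782, 0.446 and 0.557 CPM with the DIO-GFP label, which overlapped, and the means were 0.672 ± 0.226 CPM with the DIO-zeta label and 0.595 ± 0.171 CPM with the DIO-GFP label (SD, n = 3 each). Its log2 fold change of 0.18 had an SE of 0.42 and a 95% interval from -0.79 to 1.15 (edgeR adjusted p 0.965), an interval too wide to exclude a change of 1 on the log2 scale upwards. Without DIO-zeta replicate 2-1 the value was -0.080. Its start site is shown because it holds the letters of a retinoic acid response element. The capitals mark the DR5, which was on the gene's own strand 53 to 37 bases before the RefSeq start, a start that lies within the gene's span.
Rarb, chr14:16575477-16575726, minus strand: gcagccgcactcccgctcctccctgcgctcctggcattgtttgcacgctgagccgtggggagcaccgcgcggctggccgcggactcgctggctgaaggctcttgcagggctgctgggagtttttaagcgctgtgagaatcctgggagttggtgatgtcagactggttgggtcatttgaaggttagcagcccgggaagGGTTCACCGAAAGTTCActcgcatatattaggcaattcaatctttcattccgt
A DR5 occurred in 0.0883% of all windows and in no other of the 7 genes with one, and a DR2 in none of the 7.

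More genes of the wider pathway were lower than higher with the DIO-zeta label by TMM scaling, and none passed the adjusted threshold. The TMM factors were 1.002, 1.049 and 1.194 in the DIO-zeta libraries and 0.929, 0.974 and 0.881 in the DIO-GFP libraries. A larger factor lowers a library's CPM. Beside the 8, the retinoid lists hold 57 genes, all in the table, and 45 could be tested. Of these, 27 were lower and 18 higher with the DIO-zeta label, where 45.7% of all genes tested were lower. The median log2 fold change of the 45 was -0.086. On scaling to epithelial markers and on both TPM scales fewer were lower (22, 19 and 20), and the median of the 45 was 0.038 to 0.075. The median of all genes was itself 0.16, 0.14 and 0.23 in these settings, above that of the 45 in each. The count past the adjusted threshold was 0 in edgeR and in DESeq2. At an unadjusted p under 0.05, 8 were lower and 0 higher, where all genes gave 3.07% lower and 2.41% higher. The ranges were apart for 7 lower and 2 higher genes, where all genes gave 5.66% and 4.72%. The retinoid lists were also chosen with earlier results of these data known.

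Among genes of ester hydrolysis the libraries differed widely. Plb1, the brush border phospholipase B that also hydrolyses retinyl esters, was at 8.14, 87.2 and 5.87 CPM in the DIO-zeta libraries and at 544, 725 and 96.1 CPM in the DIO-GFP libraries. The ranges were only just apart, between DIO-zeta replicate 4-1 and DIO-GFP replicate 3-1, and the log2 fold change was -3.75 (SE 1.28, edgeR adjusted p 0.867). All 5 tested genes of ester hydrolysis were lower with the DIO-zeta label in the main test (3 to 5 under the alternatives), the hormone-sensitive lipase gene Lipe among them with -0.56 (SE 0.28). The pancreatic lipase gene Pnlip had 0 counts in all 6 libraries, where 3 counts would be 0.0287 to 0.0378 CPM.

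Of 19 tested retinol dehydrogenases and reductases, 12 were lower and 7 higher with the DIO-zeta label (9 to 13 lower under the alternatives). Rdh10 and Dhrs3, already described above, are counted among the 19. Adh4, an alcohol dehydrogenase that oxidises retinol, was at 0.414, 0.664 and 0.325 CPM with the DIO-zeta label against 1.66, 2.38 and 0.835 CPM with the DIO-GFP label (log2 fold change -1.80, SE 0.48, edgeR adjusted p 0.858). Rdh9 was at 133, 152 and 65.1 CPM with the DIO-zeta label against 189, 196 and 247 CPM with the DIO-GFP label (-0.85, SE 0.30), but 92.3% of its 50-base words occur in transcripts of its neighbours in the same family, so its count is uncertain. Among binding proteins, 3 of 8 tested were lower, with Rbp2 counted among these 3, and 5 were higher. Rbp7, a retinol-binding protein of fat and endothelium, was at 4.33, 5.58 and 7.34 CPM with the DIO-zeta label against 3.52, 5.39 and 3.95 CPM with the DIO-GFP label (0.42, SE 0.29).

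Genes that break down or respond to retinoic acid did not pass the test either. Cyp26b1, which degrades retinoic acid, was at 1.40, 1.05 and 0.727 CPM in the DIO-zeta libraries and 3.14, 1.09 and 1.39 CPM in the DIO-GFP libraries (log2 fold change -0.82, SE 0.47, edgeR adjusted p 0.917). Without DIO-GFP replicate 1-1 its log2 fold change was -0.24. Its relative Cyp26a1 had 0 counts in 5 of the 6 libraries. Of 12 listed genes that retinoic acid induces, 9 could be tested, 4 lower and 5 higher with the DIO-zeta label, with a median of 0.00091 that moved between -0.090 and 0.22 under the alternatives. Rarb, Dhrs3, Isx and Lrat, already described above, are counted among these 9. Among the receptors, Rxra, the common partner of the retinoic acid receptors, was at 123, 119 and 96.9 CPM with the DIO-zeta label against 116, 139 and 147 CPM with the DIO-GFP label (-0.25, SE 0.16). Rxrb was at 16.1, 14.6 and 16.3 CPM with the DIO-zeta label against 13.3, 14.6 and 12.4 CPM with the DIO-GFP label (0.23, SE 0.18), with the ranges apart only before rounding.

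**Figure D3:**
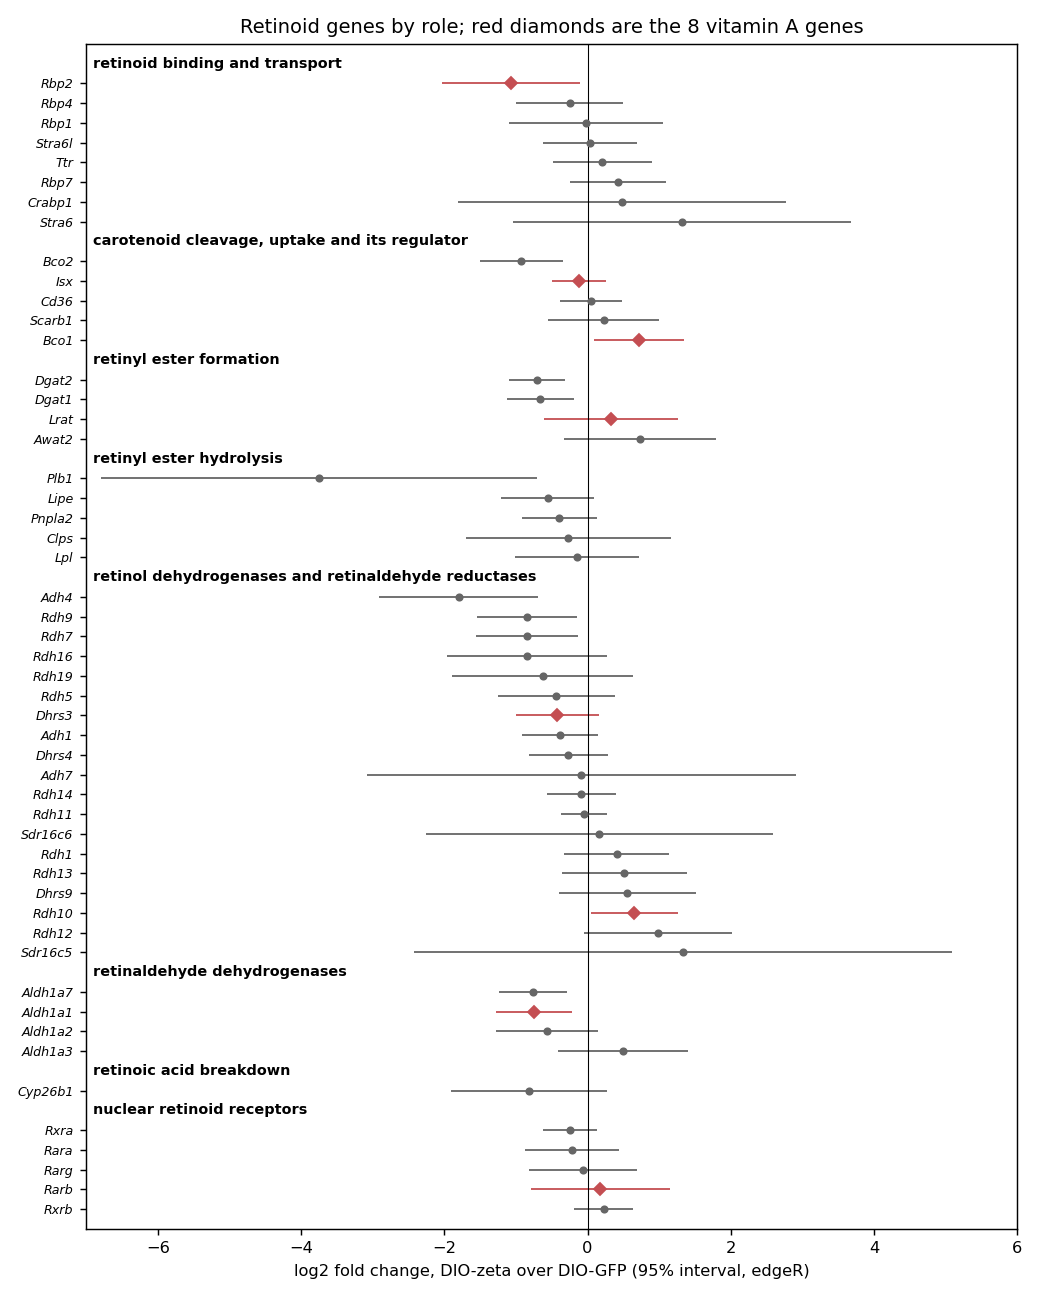
Log2 fold change, DIO-zeta over DIO-GFP, with its 95% interval from edgeR (horizontal axis) for each tested retinoid gene, grouped by role, with the 8 vitamin A genes as red diamonds. Intervals of Rbp2, Bco1, Rdh10 and Aldh1a1 do not reach 0 before adjustment. Nor do those of Bco2, Dgat1, Dgat2, Plb1, Rdh7, Rdh9, Adh4 and Aldh1a7, all below 0. No gene passes after adjustment.

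Summed marker levels of other cell types varied between libraries as well, and those of mesothelium did not overlap between labels. The 4 tested mesothelium markers were lower with the DIO-zeta label, at 1.67 to 3.33 CPM in sum with the DIO-zeta label against 6.15 to 15.5 CPM with the DIO-GFP label, and Krt5 was at 0. The median log2 fold change of the 4 was -2.08, and 3 had an edgeR unadjusted p under 0.05. The ranges of 3 were apart, and 0 passed the adjusted threshold in edgeR and 2 in DESeq2. The 6 immune markers, such as Ptprc and Itgax, were higher in the main test and overlapped, at 93.0 to 271 CPM with the DIO-zeta label against 77.5 to 150.2 CPM with the DIO-GFP label. Fibroblast markers summed to 295 to 497 CPM with the DIO-zeta label against 348 to 409 CPM with the DIO-GFP label, and smooth muscle markers to 899 to 1153 CPM with the DIO-zeta label against 561 to 1341 CPM with the DIO-GFP label. The 6 liver markers summed to 6.69 to 8.75 CPM with the DIO-zeta label against 6.38 to 8.24 CPM with the DIO-GFP label. Of these, Ttr was at 2.91 to 4.93 CPM over all libraries, while Alb, which defines liver, was at or below 0.0605 CPM everywhere. The part of these cells in the vitamin A results was not tested.

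The nearest profiles over the 6 libraries were found among 12636 genes with a mean of at least 1 CPM. Gene models with provisional names and receptor segments were left out. For Rbp2 they were Spsb2, Tfg and Pfkfb4 (Pearson's r 0.999, 0.994 and 0.992), and those of Aldh1a1 included Msra and Cib1 (0.994 and 0.985). The profiles near Rdh10 included Nupl1 and Eri1 (0.993 and 0.990), and Bco1 was nearest to Ric8b, Itga5 and Rala (0.983, 0.978 and 0.969). The first neighbour was Uap1 for Lrat, Tmem56 for Isx, Syt12 for Dhrs3 and Ppp2r3d for Rarb, at 0.976, 0.972, 0.990 and 0.985. No gene among the 3 nearest of each was another of the 8. Rarb, with a mean of 0.633 CPM, was not in the searched set and could not be one. These values rest on 6 points that share library depth and tissue makeup, and they describe likeness only.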

How the data were processed

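Total RNA of 6 libraries of mouse small intestine was sequenced, per the labels, after ribosomal RNA depletion with a stranded kit. FastQC, Trimmomatic, HISAT2 and StringTie with mm10 are named, per the submitters' processing notes, without versions; the counting program and its use of strand are not stated there or in the labels. Whole read counts per gene, deposited by the authors with no normalisation, were tested here. The deposited FPKM values were not used. The deposited TPM values were used for levels between genes and in 2 alternatives.

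Counts were tested with edgeR 4.0.16 (R 4.3.3) after filterByExpr, TMM scaling and a robust quasi-likelihood F test, adjusted by Benjamini-Hochberg over 18456 genes with a threshold of 0.05. The step was tested on simulated counts. Log2 CPM used a prior count of 2. Alternatives were DESeq2 1.42.0, limma 3.58.1, other scalings and filters, and leaving out each library. Positions and start-site windows are from RefSeq (GRCm38.p6), with 45679 of 45777 gene IDs matched; transcripts and strands are from GENCODE. Intervals cover the spread between libraries.

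The genes and lists were chosen with earlier results of these data known. The named genes are the 8, those with the smallest p in each retinoid list, genes a role refers to, and the 3 nearest profiles of each of the 8, of which some are not reported here. Pairs outside that rule are said to be so. Some single genes of the marker and retinoid lists are also named outside it.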

Additional observations from a re-analysis of the deposited data

How the results depend on the processing

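No paired analysis was possible because the groups share no replicate number. The first number of these names repeats within each group (1-1 and 1-4 in DIO-GFP, 4-1 and 4-2 in DIO-zeta) and is never shared between groups. Its meaning is not given, so whatever it stands for cannot be told apart from the label. Over the 16 alternatives, 0 of the 8 genes passed the adjusted threshold. DESeq2 called 87 genes where edgeR called 0, with 9617 adjusted p-values not given. Rbp2, Aldh1a1 and Dhrs3 were lower and Bco1 and Rdh10 higher with the DIO-zeta label in every alternative run, with log2 fold changes of -1.43 to -0.69, -0.89 to -0.49, -0.64 to -0.16, 0.47 to 0.93 and 0.32 to 0.81. Isx turned to 0.012 on scaling to 6 pan-epithelial markers, 0.097 on log2(TPM + 1) and 0.098 on log2(TPM + 0.1), where the median of all genes was itself 0.16, 0.14 and 0.23. Relative to those shifts Isx was lower in each, and the cause was not tested. Leaving out a library gave Lrat -0.21 to 0.66, below 0 without DIO-zeta replicate 4-1, and Rarb -0.080 to 0.42, below 0 without DIO-zeta replicate 2-1. The median of the 8, 0.031, was -0.11 with a mean of at least 1 CPM, which leaves Rarb out, and -0.043 in limma voom, and leaving out a library gave -0.23 to 0.091, below 0 (-0.077, -0.083 and -0.23) without DIO-GFP replicate 1-4, DIO-zeta replicate 2-1 or DIO-zeta replicate 4-1. Rarb had 34 to 78 reads per library, and its SE of 0.42 was like that of Rbp2, with 7312 to 31222 reads.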
